A study of Mus musculus with 2 samples.

Results

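Imprinted genes are read mainly or only from the copy inherited from 1 parent. The 36 genes described here lie at 17 imprinted loci on 9 chromosomes, outside the Dlk1-Meg3 and Snrpn-Ube3a clusters. They were taken by name from the annotation of the deposited tables, and all 36 were found among 55536 annotated genes. Of them, 32 were annotated as protein coding and 4 as other RNAs. The tissue was left cerebral cortex, and the mice were females of the B6CASTF1/J strain, a first-generation cross of C57BL/6J with CAST/EiJ, at an age of 18 to 20 months. Total RNA-seq started from 300 ng per library, and spike-ins were added. The labels give 1 group of 2 libraries, biological replicates 1 and 2, with no treatment and no contrast. Both biosamples point to 1 donor entry, so the spread given here may be technical.

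Imprinting is set by DNA methylation laid down in the egg or the sperm at imprinting control regions. It is kept through the cell divisions after fertilisation by zinc finger proteins that bind the methylated copy, with the co-repressor TRIM28. Many imprinted genes limit or promote growth before birth, and in the brain others act in neurons, in hormone signalling or in maternal care. Several share a pattern in which a small gene, often a retrotransposed copy, lies in an intron of a larger one and is silenced on the maternal copy. Which parental copy made a read cannot be seen in these tables, because allelic reads are not in them. Statements about parental origin below are background.

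The depth was 32504959 expected counts for replicate 1 and 24899781 for replicate 2. Levels are in TPM, which scales reads by transcript length and to a fixed sum per library, so that genes can be compared. They are given for replicate 1 and then replicate 2, or as mean ± SD (n = 2). Of the cortical neuron markers that check the tissue label, Snap25, Slc17a7 and Gad1 stood at 1449, 552 and 174 TPM on average. The hypothalamic list (Pomc, Avp, Agrp, Oxt, Hcrt) had 0 of 5 genes at 1 TPM in both libraries, with Oxt and Hcrt at 0 in both. In the alignment-free tables Hcrt was again at 0 and Oxt at 0.98 and 1.89 TPM.

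Of the 36 genes, 31 reached 1 TPM in both libraries. Among all annotated genes 26.7% did so, and among nuclear protein-coding genes 58.5%. The median of the 36 mean levels was 16.8 TPM, with a median of 15.9 TPM in each library. At 100 TPM or more in both were 3 genes, Gnas, Nap1l5 and Impact, and 7 genes were at 50 TPM or more in both. Together the genes held 0.360% of gene counts in replicate 1 and 0.370% in replicate 2. Gnas alone held 23.0% and 20.8% of these, a mean of 21.9% ± 1.59. Genes were grouped by the parental copy known from other work. Igf2 is grouped as paternally expressed, though in the adult brain it is known from cells where both parental copies are read. All 16 genes known as paternally expressed in most tissues were at 1 TPM in both libraries, and their median was 24.9 TPM. Of the 16 genes known as maternally expressed or biased in some tissue, 11 were, and the median of the 16 was 14.0 TPM. All 4 genes whose parental copy depends on the promoter or the tissue (Gnas, Grb10, Inpp5f, Ddc) were.

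**Figure D1:**
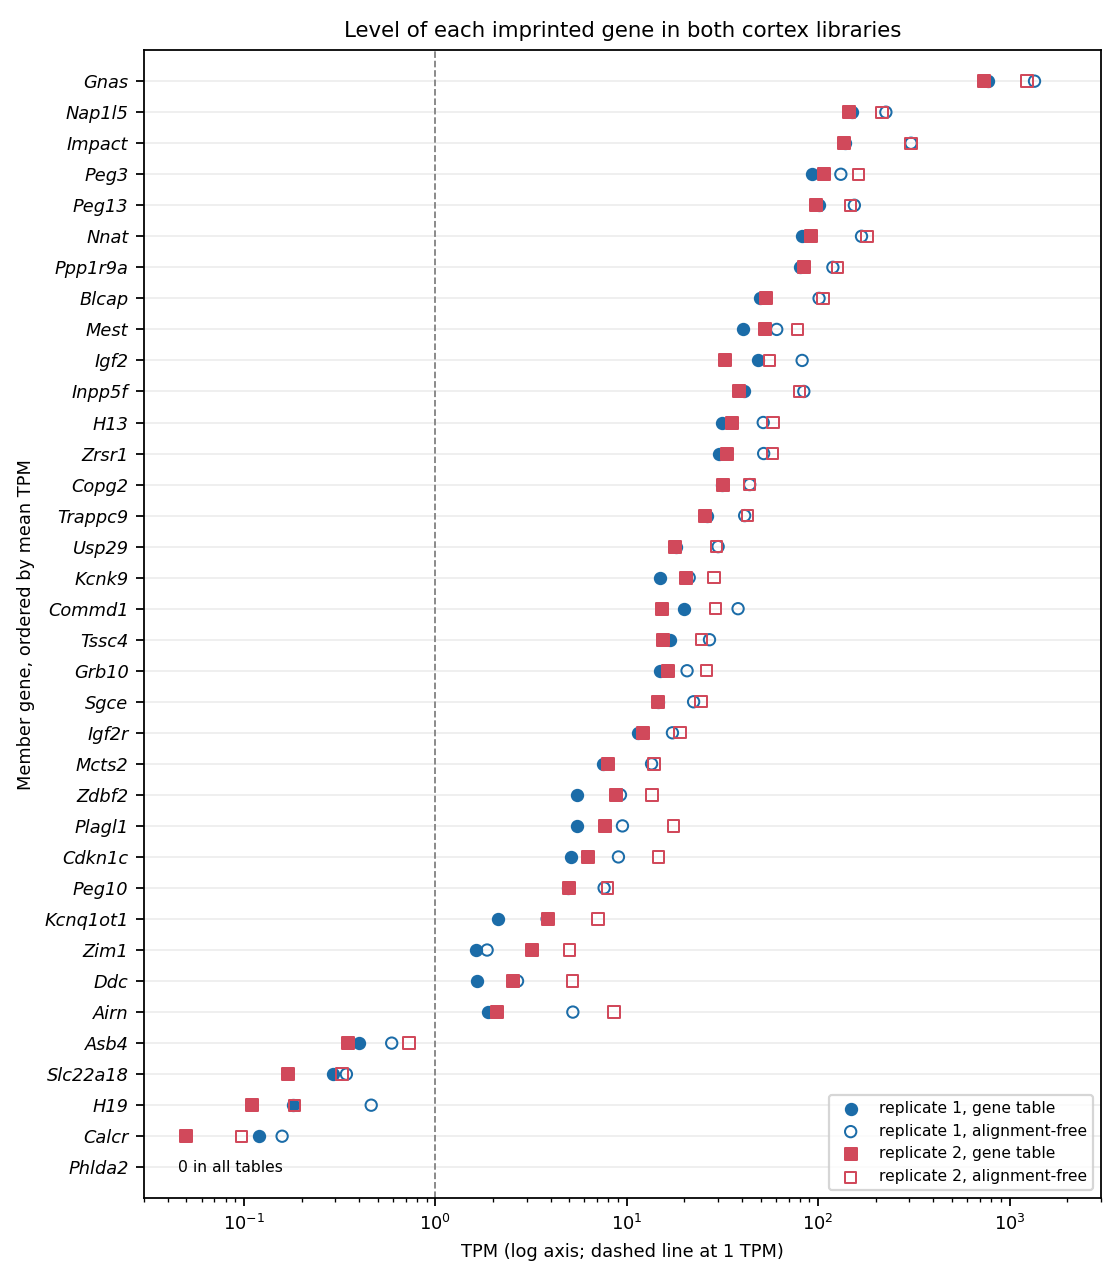
TPM (log axis) of each of the 36 imprinted genes, ordered by mean, in replicate 1 (circles) and replicate 2 (squares), from the gene tables (filled) and from the alignment-free transcript tables summed to genes (open). The dashed line marks 1 TPM; 31 genes lie above it in both gene tables, and Phlda2 is at 0 in all tables.

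Gnas, at chr2:174284320-174346744 on the plus strand (mm10), encodes the stimulatory G protein alpha subunit Gs-alpha, which couples receptors to adenylyl cyclase. It was the highest of the 36 genes, at 775 and 738 TPM (26839 and 19050 counts). The locus is known for alternative first exons with different imprints: a maternal Nesp start, paternal XL and exon 1A starts, and the Gs-alpha start, which is biallelic in most tissues. Annotated starts within 1000 bases of each other were grouped. The promoter sequences are shown because the TPM of the gene was divided among transcripts annotated from these starts. Each is the 250 bases before a RefSeq start, build GRCm38.p6, plus strand, with every CG dinucleotide in capitals.
Nesp start, chr2:174284070-174284319: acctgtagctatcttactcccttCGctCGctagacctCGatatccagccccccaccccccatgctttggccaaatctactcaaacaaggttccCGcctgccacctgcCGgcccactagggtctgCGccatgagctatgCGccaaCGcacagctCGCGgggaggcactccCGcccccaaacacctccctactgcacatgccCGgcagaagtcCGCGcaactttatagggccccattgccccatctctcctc
Exon 1A start, chr2:174327518-174327767: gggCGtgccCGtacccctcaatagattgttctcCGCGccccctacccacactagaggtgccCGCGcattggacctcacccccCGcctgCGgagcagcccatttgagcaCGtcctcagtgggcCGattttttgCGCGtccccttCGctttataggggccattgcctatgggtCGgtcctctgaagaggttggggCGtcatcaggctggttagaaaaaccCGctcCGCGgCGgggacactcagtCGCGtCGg
Gs-alpha start, chr2:174329756-174330005: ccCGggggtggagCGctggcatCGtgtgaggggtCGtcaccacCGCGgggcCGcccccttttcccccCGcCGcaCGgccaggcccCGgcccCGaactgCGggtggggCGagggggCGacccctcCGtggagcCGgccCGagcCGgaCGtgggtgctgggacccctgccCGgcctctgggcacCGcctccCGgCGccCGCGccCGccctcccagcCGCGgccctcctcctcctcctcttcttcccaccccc
The windows hold 14, 22 and 29 CG dinucleotides, against a median of 6 over all 32851 promoter windows of the same table.

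In the alignment-based transcript tables the 4 Gnas transcripts that start at chr2:174330006-174330287 held 722 and 676 TPM. That is 92.3% ± 1.11 of the gene. The 6 transcripts of the exon 1A group, starting at chr2:174327570-174328023, held 46.2 and 53.2 TPM, or 6.58% ± 0.88. The 5 transcripts of the Nesp group held 0.82 and 1.88 TPM, and the 7 of the XL group 0.02 and 0.06 TPM. The Gs-alpha start therefore led in both libraries, and the XL start was the lowest of these 4 groups in all 4 tables. In the alignment-free tables the Nesp group had 4.98 and 7.61 TPM, 0.49% ± 0.17 of the gene. The antisense RNA Nespas, which crosses the Nesp start on the opposite strand, had 0 counts in replicate 1 and 6 in replicate 2. The alignment-free tables gave the exon 1A group 22.9% ± 3.09 and the Gs-alpha group 76.4% ± 2.69, so the order held while the exon 1A share was over 3 times as large.

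Among single Gnas transcripts, Gnas-208 led both kinds of table, with 409 and 385 TPM and 52.4% ± 0.50 of the gene in the alignment-based tables. Its share was 46.3% ± 1.45 in the alignment-free tables. Gnas-206, which starts 8 bases from it, had 236 and 224 TPM in the alignment-based tables but 27.0 and 32.5 TPM in the alignment-free ones. Gnas-207 showed the opposite, with 23.5 and 20.8 TPM against 339 and 322 TPM. Gnas-205 was at 6.59% ± 0.43 in the alignment-based tables, and the exon 1A transcript Gnas-218 at 11.2% ± 4.39 in the alignment-free ones. Gnas-218 also differed between the libraries there, at 194 and 100.3 TPM. For Gnas-206 and Gnas-207 the libraries were thus close to each other and the kinds of table far apart. Gm20721, annotated on the opposite strand over 1469 exon bases of Gnas, was at 1.195 TPM.

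Grb10, an adaptor protein that binds and dampens the insulin and IGF1 receptors, lies at chr11:11930508-12038683 on the minus strand. It is known for maternal expression from its upstream promoter in most tissues and for paternal expression from downstream promoters in neurons. The gene stood at 14.96 and 16.4 TPM (1251 and 935 counts). Its promoters are shown because the upstream and the next start differ in CG content and the transcripts annotated from both had TPM above 0. Each sequence is the 250 bases before a RefSeq start, build GRCm38.p6, read on the minus strand, with CG in capitals.
Upstream start, chr11:12037421-12037670: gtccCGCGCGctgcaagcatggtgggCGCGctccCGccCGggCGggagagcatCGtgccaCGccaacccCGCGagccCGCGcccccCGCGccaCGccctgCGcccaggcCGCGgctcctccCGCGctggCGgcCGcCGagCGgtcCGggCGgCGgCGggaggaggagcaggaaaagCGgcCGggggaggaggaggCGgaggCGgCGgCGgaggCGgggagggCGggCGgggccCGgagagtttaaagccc
Next start, chr11:12027972-12028221: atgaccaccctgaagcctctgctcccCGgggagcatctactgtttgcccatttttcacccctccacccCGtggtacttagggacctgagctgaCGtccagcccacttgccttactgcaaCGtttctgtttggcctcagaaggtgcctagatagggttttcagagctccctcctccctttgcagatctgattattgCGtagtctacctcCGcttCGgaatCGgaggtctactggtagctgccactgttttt
They hold 40 and 8 CG dinucleotides. Grb10-201, the transcript of the upstream start, had 9.33 and 6.47 TPM, or 62.4% and 39.4% of the gene. Grb10-203, from the next start, had 1.04 and 3.90 TPM. Transcripts that start further downstream, at chr11:12026324-12026732 (Grb10-207 and Grb10-209), had 4.10 and 4.85 TPM together, 28.5% ± 1.52 of the gene. Replicate 1 was thus higher at the upstream start and replicate 2 at the next one, and the third group differed least. The upstream share was 50.9% ± 16.2 in the alignment-based tables and 57.8% ± 18.0 in the alignment-free tables, where Grb10-207 was at 0 in both libraries. Grb10-204, a short transcript inside the gene, reached 4.46 TPM in replicate 2 and 0 in replicate 1 of the alignment-free tables.

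Inpp5f, a phosphoinositide phosphatase of the endosomal system, lies at chr7:128611328-128696425 on the plus strand. A short form that starts inside the gene is known to be paternally expressed in the brain. The gene had 41.2 and 38.5 TPM (2954 and 2046 counts). The internal starts at chr7:128687546-128688489 held 30.1 and 24.8 TPM, which is 68.8% ± 6.02 of the gene. The full-length starts at chr7:128611328-128611360 held 9.38 and 8.00 TPM, or 21.8% ± 1.39. In both libraries the internal starts were the higher by more than the spread. The alignment-free tables gave them 61.3% ± 3.15 and 16.6% ± 0.97. Within the internal group the tables differed: Inpp5f-208 led with 38.1% ± 4.78 in the alignment-based tables and had 11.4% in the alignment-free ones. Inpp5f-209, at 0 in both alignment-based tables, had 26.8% ± 1.94 in the alignment-free ones. Inpp5f-203 held 30.7% ± 1.25 and 23.1% ± 0.71. Inpp5f-206, with a retained intron, held 6.63% ± 6.11 and 17.7% ± 1.04. The processed pseudogene Gm43580 shares 284 exon bases with Inpp5f on the same strand and was at 14.8 TPM, and the expected counts of Inpp5f were fractional, so the reads of both are uncertain.

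**Figure D2:**
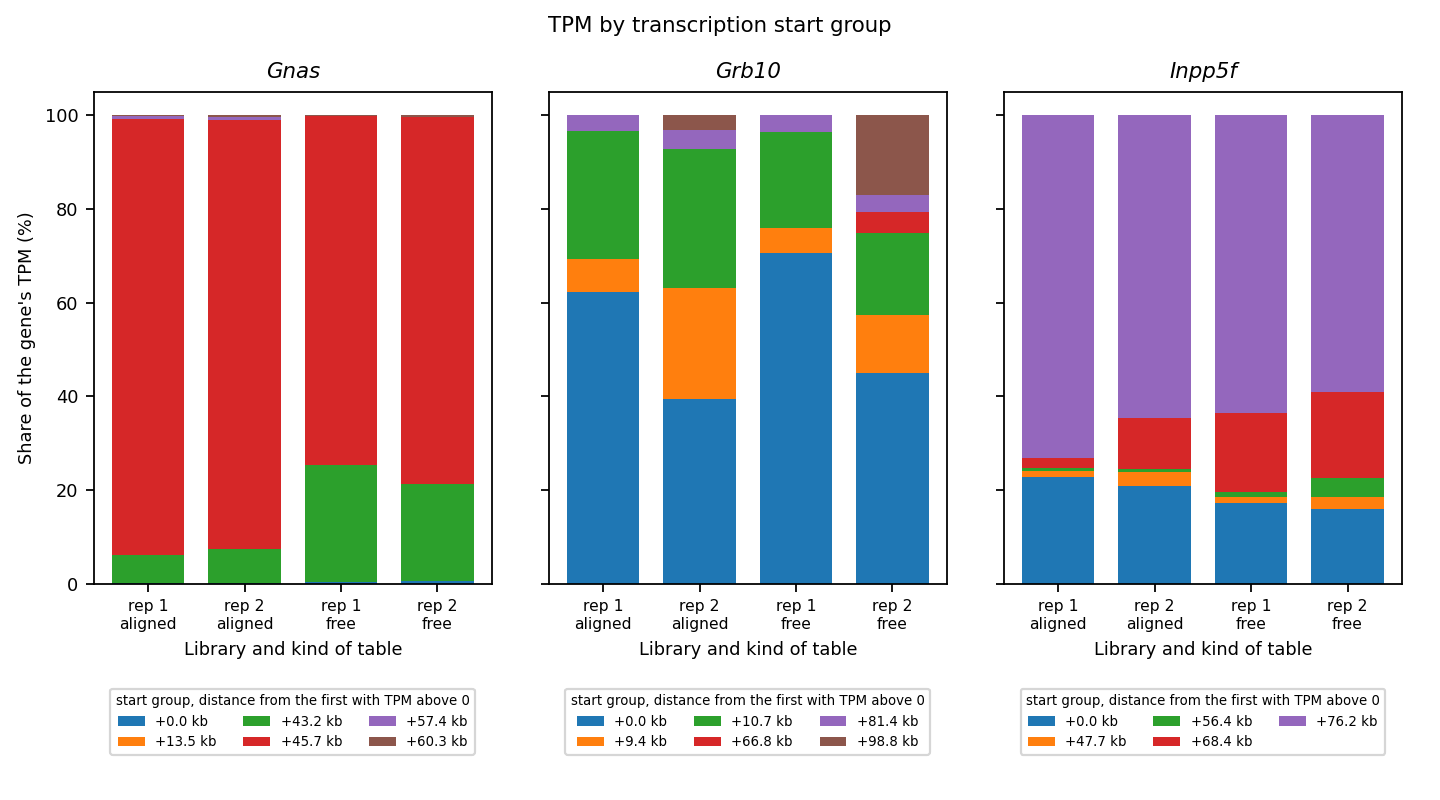
Share of each gene's TPM (percent, stacked to 100) by group of transcription starts for Gnas, Grb10 and Inpp5f, in each library and kind of table (aligned, alignment-based; free, alignment-free). Legends give the distance in kb from the most upstream start with TPM above 0; the Gs-alpha start (red) leads Gnas and the internal start (purple) leads Inpp5f in all 4 tables, while the upstream Grb10 start (blue) runs from 39.4% to 70.5%.

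TPM was grouped by annotated start for other genes too. The starts are those of annotated transcripts and were not measured from read ends. Mest, a hydrolase-fold protein, had 39.3 and 50.1 TPM from chr6:30738050-30738055, or 96.2% ± 1.71 of the gene (79.8% ± 3.46 in the alignment-free tables). Plagl1, a zinc finger regulator of a network of growth genes, had 5.21 and 6.07 TPM from chr10:13090691-13091013, 87.1% ± 11.5 of the gene. The TPM of Igf2 was divided among several starts, with 21.3 and 13.2 TPM at chr7:142657466-142657496 and 14.3 and 10.2 TPM at chr7:142661205-142661870. In the alignment-free tables these groups had 23.2 and 14.6 TPM, and 11.6 and 5.09 TPM. Their shares of the gene were 42.0% and 30.3% in the alignment-based tables and 27.2% and 11.6% in the alignment-free ones. Both of these groups were lower in replicate 2, while Igf2-208, from a start further downstream, was not, at 6.79 and 7.21 TPM. In the alignment-free tables Igf2-209, at 0 in the alignment-based ones, led the gene with 34.9 and 22.6 TPM. In 9 of the 35 genes with a value, the leading transcript was not the same in the 2 kinds of table (Airn, Blcap, Ddc, Igf2, Inpp5f, Nnat, Peg10, Tssc4 and Zim1). Calcr (7 and 3 counts) and H19 (3 and 2 counts) were among those with the same leader, from too few counts to place it. The share over all genes was not computed, so nothing about the group is read from this count.

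At the Peg3 locus on chromosome 7, Peg3 (6703892 to 6730431, minus strand) encodes a zinc finger protein known for roles in maternal behaviour and growth. Usp29, a deubiquitinating enzyme, is read the other way from a start 147 bases away. Their 250-base RefSeq windows (GRCm38.p6, each on the strand of its gene, CG in capitals) are shown because they cover much of the same DNA.
Peg3, minus strand, chr7:6730420-6730669: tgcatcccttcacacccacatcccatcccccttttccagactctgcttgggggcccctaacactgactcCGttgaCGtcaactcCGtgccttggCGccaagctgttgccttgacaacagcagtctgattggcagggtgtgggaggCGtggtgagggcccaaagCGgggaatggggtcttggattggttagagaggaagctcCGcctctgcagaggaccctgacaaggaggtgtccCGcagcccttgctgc
Usp29, plus strand, chr7:6730333-6730582: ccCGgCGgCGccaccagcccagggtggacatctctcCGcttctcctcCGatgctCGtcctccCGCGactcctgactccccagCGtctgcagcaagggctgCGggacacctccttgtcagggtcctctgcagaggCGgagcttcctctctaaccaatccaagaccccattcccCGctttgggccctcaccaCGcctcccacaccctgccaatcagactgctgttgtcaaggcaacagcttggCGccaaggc
Peg3 had 92.7 and 108 TPM (15288 and 13177 counts) and Usp29 had 18.0 and 17.8 TPM. From neighbouring starts the levels thus differed several fold, in the same direction in both libraries. Zim1, a maternally expressed zinc finger gene of the locus, was far lower, at 1.62 and 3.20 TPM (107 and 136 counts).

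The Peg10 cluster on chromosome 6 held genes of very different level. Ppp1r9a (neurabin-1, an actin-binding scaffold for protein phosphatase 1 in dendritic spines) had 80.3 and 83.9 TPM. Sgce, the epsilon-sarcoglycan whose human gene is mutated in myoclonus dystonia, had 14.5 and 14.6 TPM. Peg10, a gene derived from a retrotransposon that shares a promoter region with Sgce, had 4.95 and 4.98 TPM, with starts 99 bases apart. Asb4, a substrate adaptor of a ubiquitin ligase, had 0.40 and 0.35 TPM. Calcr, the calcitonin receptor, had 0.12 and 0.05 TPM, from 7 and 3 counts. The level thus ranged from Ppp1r9a to Calcr, both known for maternal expression in some tissues.

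Impact, on chromosome 18, which restrains the translation regulator GCN2, had 138 and 136 TPM (8275 and 5938 counts). It followed Gnas and Nap1l5 in the gene tables, but in the alignment-free tables it lay above Nap1l5, with means of 306 and 221 TPM. Zdbf2 on chromosome 1 had 5.49 and 8.77 TPM. Plagl1 on chromosome 10 had 5.47 and 7.67 TPM. Ddc on chromosome 11, aromatic L-amino acid decarboxylase of monoamine synthesis, had 1.65 and 2.53 TPM from 52 and 58 counts. In the list of monoamine neuron markers 0 of 5 reached 1 TPM in both libraries. Th was at 0.38 and 0.48 TPM and Tph2 at 0.33 and 0.14 TPM.

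On distal chromosome 7, Igf2 (142650766 to 142666816, minus strand), the fetal growth factor IGF2, had 48.5 and 32.8 TPM (2300 and 1051 counts). H19, the noncoding RNA that shares its enhancers, had 0.18 and 0.11 TPM, from 3 and 2 counts. Of the Kcnq1ot1 domain, Kcnq1ot1, a noncoding RNA that silences its neighbours in cis, had 2.12 and 3.88 TPM. Cdkn1c, a cyclin-dependent kinase inhibitor, had 5.09 and 6.24 TPM. Tssc4 had 16.9 and 15.4 TPM. Slc22a18, of the organic cation transporter family, had 0.29 and 0.17 TPM from 9 and 4 counts. Phlda2, a placental growth restrictor, had 0 counts in both libraries, which allows up to 3 counts, or 0.0927 and 0.121 CPM (counts scaled to library size). Thus 3 of the 5 genes below 1 TPM lay on distal chromosome 7 and the others in the Peg10 cluster. Cdkn1c shares 625 exon bases with Gm44732 on the opposite strand, which was at 0.18 TPM. Igf2 shares 3596 of its 5723 exon bases with Gm49394, a protein-coding entry on the same strand at 0 TPM. The counts of Igf2 were whole numbers.

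On chromosome 17, Igf2r, the receptor that clears IGF2 and sorts lysosomal enzymes, had 11.5 and 12.1 TPM. Airn, the antisense RNA that silences it in cis in many tissues, had 1.89 and 2.10 TPM from 37 and 29 counts. The level of Airn rests on 3597 annotated exon bases within chr17:12741311-12860136, so RNA from the rest of that span was not counted. The ratio of the levels, Airn over Igf2r, was 0.169 ± 0.0064. It was 0.377 ± 0.106 in the alignment-free tables, where Airn had 6.90 TPM on average.

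Several genes form a pair of a nested or antisense gene with a host. Nnat, a proteolipid of the endoplasmic reticulum in neurons, lies in an intron of Blcap, a gene known to be maternally biased in brain. Nnat had 82.3 and 91.3 TPM and Blcap 49.6 and 53.4 TPM, a ratio of 1.68 ± 0.035. Peg13, a noncoding RNA in an intron of Trappc9, had 101 and 97.0 TPM against 26.2 and 25.6 TPM of this trafficking-complex gene, a ratio of 3.83 ± 0.057. Peg13 and Trappc9 lie on the same strand, so in total RNA unspliced Trappc9 reads there cannot be told from Peg13 reads. The third gene of that locus, the potassium channel gene Kcnk9, had 14.9 and 20.5 TPM. Nap1l5, a histone chaperone homologue, had 150.0 and 144 TPM and its host Herc3 134 and 141 TPM. That ratio was 1.07 ± 0.067, and it fell below 1 (0.778) in the alignment-free tables, so no order of the pair can be given. In the Nnat and Peg13 pairs the nested gene was the higher one in every library and table.

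Zrsr1, a copy of the splicing factor gene Zrsr2 in an intron of Commd1, had 30.3 and 33.5 TPM. Commd1, a regulator of endosomal copper transporter sorting, had 19.8 and 15.2 TPM. The ratio was 1.86 ± 0.475, and the genes share 412 exon bases on opposite strands. Commd1 had fractional counts and Zrsr1 did not. On its own strand Commd1 shares 294 exon bases with Gm28048, which was at 5.265 TPM. Which overlap made the counts fractional was not tested. The source gene Zrsr2 was at 21.1 and 21.3 TPM. Mcts2, a retrotransposed copy of the translation factor gene Mcts1, had 7.47 and 8.02 TPM (137 and 110 counts) inside H13, the signal peptide peptidase, at 31.3 and 35.6 TPM. The ratio was 0.232 ± 0.0093, so in this pair the host was the higher gene. Mcts2 and H13 lie on the same strand, with the same limit as for Peg13 and Trappc9. Mcts1 itself had 32.1 and 30.7 TPM. Kcnq1ot1 and its host Kcnq1 (15 and 12 counts) gave a ratio of 12.1 ± 4.03. Mest and Copg2, a coat protein subunit of the Golgi (31.6 and 31.8 TPM), converge and share 912 exon bases on opposite strands. Whether the counting used strand is not given in the sources used here. Reads in such shared stretches therefore cannot be assigned to 1 gene with certainty. Without strand, this would also hold for unspliced host reads over Nnat, Nap1l5, Zrsr1 and Kcnq1ot1, which lie inside hosts on the opposite strand. Over the 7 pairs the median ratio was 1.68.

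The first 90 coding bases of Mcts2 and of its source gene (GENCODE M21 transcripts) are shown because reads tell the copies apart only where they differ; capitals mark the differing bases.
Mcts2-201: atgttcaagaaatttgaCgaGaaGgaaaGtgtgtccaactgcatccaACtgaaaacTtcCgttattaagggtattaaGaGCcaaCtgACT
Mcts1-201: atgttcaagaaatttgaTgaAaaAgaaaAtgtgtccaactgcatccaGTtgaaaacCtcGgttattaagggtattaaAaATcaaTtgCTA
Over the 543 coding bases the genes differ at 81, an identity of 85.1%, and 15 of the differences lie in the stretch shown. Both Mcts2 and Zrsr1 had whole-number counts in both libraries. Zrsr1 and Zrsr2 coding sequences aligned at 80.6% identity outside gaps.

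**Figure D3:**
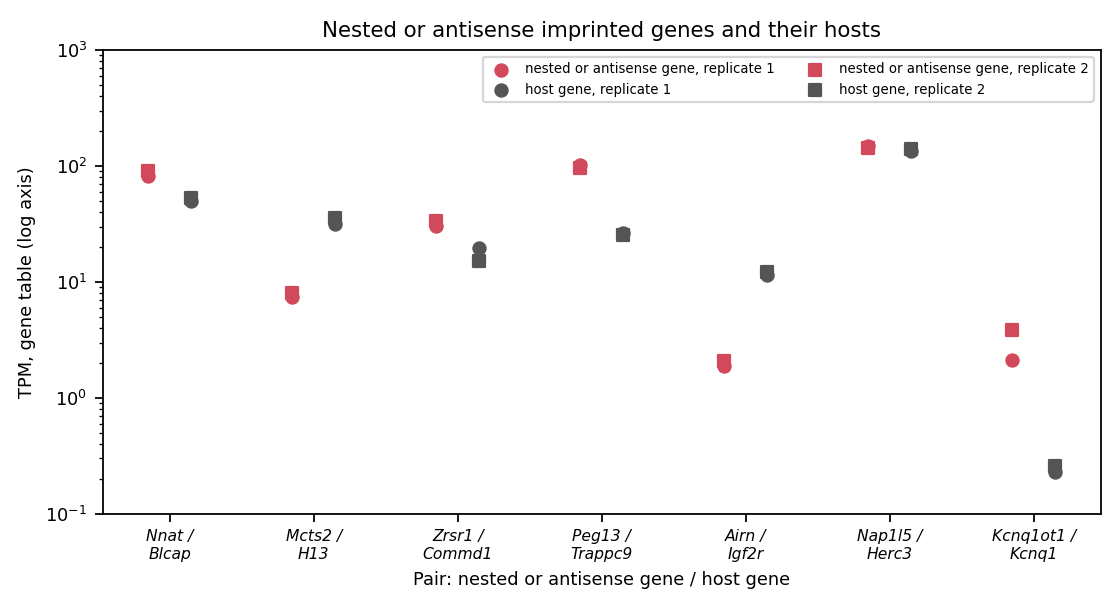
TPM (log axis) of the nested or antisense gene (red) and the host gene (grey) of each pair in replicate 1 (circles) and replicate 2 (squares), from the gene tables. Nnat, Zrsr1, Peg13 and Kcnq1ot1 lie above their hosts in both libraries, Mcts2 and Airn below, and Nap1l5 and Herc3 nearly coincide.

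The libraries were compared by the log2 ratio of replicate 2 to replicate 1, from counts scaled to the library; it describes 2 libraries of 1 group and has no replicate check. Of the 36 genes, 32 had a mean of 10 counts or more. Of these, 3 differed by over 1.5-fold. Among all 18246 genes that passed the same filter, 14.3% did so, 10.7% with replicate 2 higher and 3.62% with it lower. The median ratio was -0.01 for the 32 genes and 0.00 for all genes, with 15 above 0 and 17 below. At this filter of 10 counts the share of imprinted genes past this fold was not above that of all genes. That order depended on the filter. With the required mean raised to 100 counts, 4 of 29 imprinted genes passed 1.5-fold, against 471 of 12570 genes, so their share was then the larger. With 1 group no test was made, so nothing about the group is read from either share. Where the spike-ins set the scale, the median of all genes moved to 0.16 and that of the 32 genes to 0.15. Then 27 of the 32 lay above 0, and 4 were over 1.5-fold higher and 1 lower, in place of 2 and 1; over all genes 2613 were higher and 390 lower, in place of 1958 and 660.

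Igf2 was lower in replicate 2 by 0.75 on the log2 scale (2300 and 1051 counts; 95% exact binomial interval of counting error alone, -0.86 to -0.64). In the adult brain Igf2 is known from the leptomeninges and the choroid plexus, where both parental copies are read. Of the 9 leptomeningeal markers, 7 were lower in replicate 2, and their summed level was 72.6 and 55.8 TPM. By over 1.5-fold lower were 4 of them: Ogn at -0.72, Slc22a6 at -0.71, Slc6a13 at -0.68 and Igfbp2 at -0.59. The fibroblast collagen gene Col1a1 was at -0.02 and Dcn at 0.29. The 5 choroid plexus markers summed to 8.15 and 4.37 TPM; Ttr was at -1.25 with 164 and 52 counts, Kl was at 1.16 TPM in both, Aqp1 was at 0.16 TPM in both, and Folr1 and Kcne2 were at 0.14 TPM or less. Markers of other cell types were lower too: endothelial Cldn5 was at -0.68 and Flt1 at -0.10, microglial P2ry12 at -0.33 and Csf1r at -0.25, and oligodendrocyte Mbp at -0.33. The astrocyte genes Slc1a2 and Aqp4 were at 0.05 and -0.06. In bulk tissue fewer cells of a type and less RNA per cell cannot be told apart. The part of these cells in the Igf2 difference was not tested.

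Kcnq1ot1 was higher in replicate 2 by 0.83 on the log2 scale (4448 and 6080 counts; interval 0.77 to 0.89). Its annotation is 1 transcript of 93092 bases. Beside it, 5 abundant long nuclear RNAs, a list chosen after values were seen, were all higher in replicate 2: Meg3 at 0.80, Miat at 0.62, Neat1 at 0.56, Malat1 at 0.52 and Xist at 0.34. Whether the Kcnq1ot1 difference belongs with theirs was not tested. Airn, the other antisense RNA, was at 0.03 (interval -0.73 to 0.77), and Peg13 at -0.11.

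Zim1 was higher in replicate 2 by 0.71, with an interval of 0.35 to 1.10 from its 107 and 136 counts; in the alignment-free counts it was at 0.50, within 1.5-fold. The next largest were Zdbf2 at 0.58, Ddc at 0.52, Kcnk9 at 0.42, Mest at 0.40, Commd1 at -0.34 and Tssc4 at -0.29. The most abundant genes differed little: Gnas was at -0.12, Nap1l5 at -0.10, Impact at -0.10 and Peg3 at 0.16. Neighbours could differ: Usp29 was at -0.07 beside Peg3, and Copg2 at -0.20 beside Mest.

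**Figure D4:**
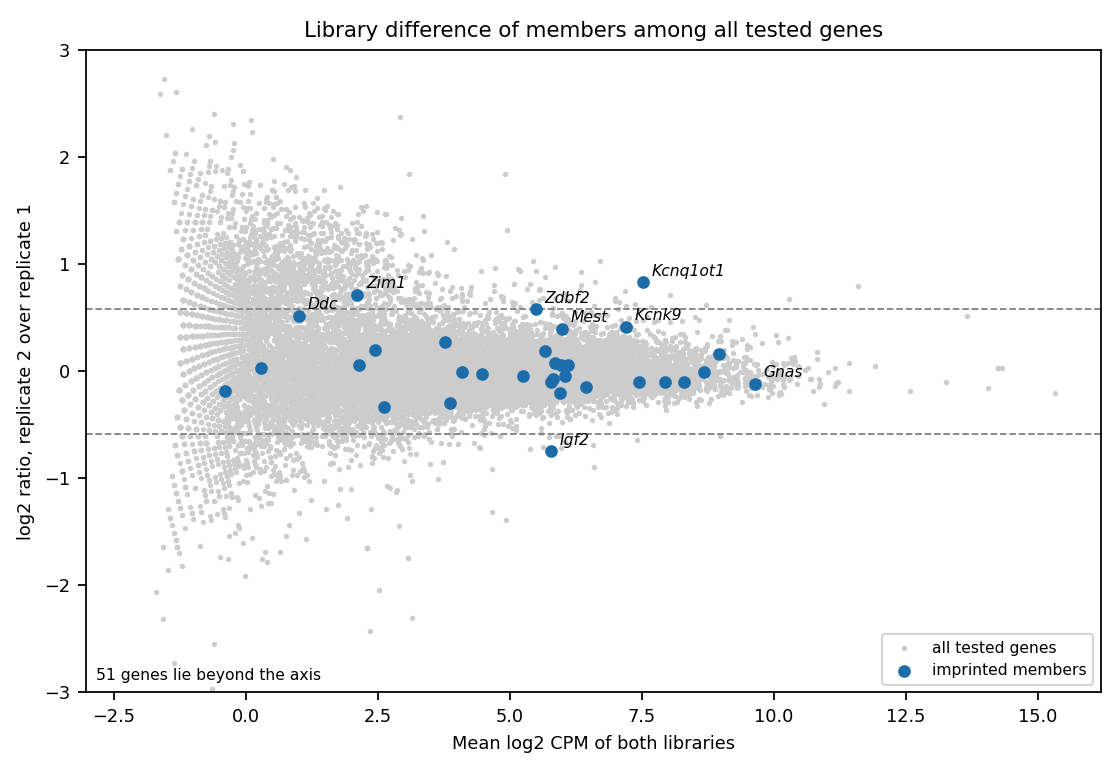
log2 ratio of replicate 2 to replicate 1 against mean log2 CPM for all 18246 tested genes (grey) and the 32 tested imprinted genes (blue); dashed lines mark 1.5-fold, and 51 genes lie beyond the axis. Kcnq1ot1 and Zim1 lie above the upper line, Igf2 lies below the lower line, and the other imprinted genes lie between them.

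**Figure D5:**
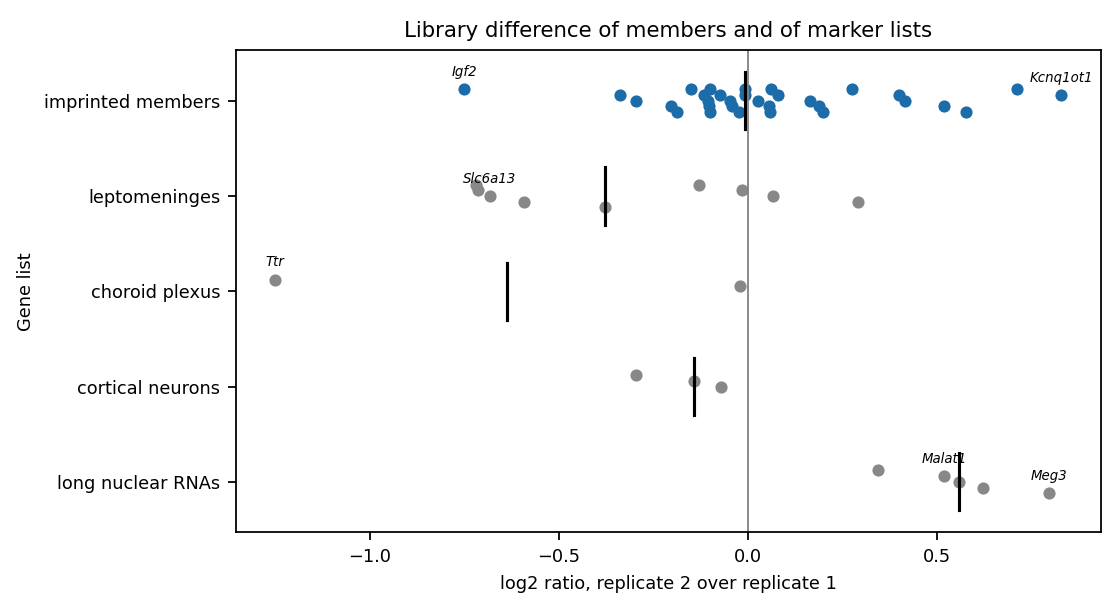
log2 ratio of replicate 2 to replicate 1 for the tested imprinted genes (blue) and for the tested genes of 4 other lists (grey); vertical bars are medians and points are offset vertically for legibility. Igf2 lies at -0.75 and Kcnq1ot1 at 0.83, and 7 of 9 leptomeningeal genes lie below 0. All 5 long nuclear RNAs lie above 0, but this list was chosen after values were seen.

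The 2 kinds of table differed in scale. Of 35 genes at 0.1 TPM or more in either, 27 were over 1.5 times higher in the alignment-free tables, and 0 were lower by that much; among all genes 74.7% were higher and 6.36% lower by this rule. The median ratio was 1.64 for the imprinted genes at 1 TPM and 1.61 for all genes at that level. After both were rescaled to a sum without short structural RNAs and spike-ins, the medians were 0.998 and 0.982. Then Airn alone of the imprinted genes was over 1.5 times apart, at 2.10, against 33.1% of all genes. That share is over 27687 genes at 0.1 TPM or more in either, while 14804 annotated genes reached 1 TPM in both libraries. Of the imprinted genes 31 reached it, so the sets differ in level and nothing about the group is read from these shares. Impact, at 2.23 before and 1.36 after rescaling, was the next highest with H19.

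Of the proteins that set or keep imprints, 10 of 15 listed genes were at 1 TPM in both libraries. The highest were Trim28 (94.8 TPM), the co-repressor, Zfp445 (80.0 TPM), a zinc finger protein that binds methylated imprinting control regions, and Ehmt2 (76.9 TPM), a histone H3 lysine 9 methyltransferase. Zfp57, the other zinc finger protein of that kind, had 5.24 and 6.73 TPM. The germ-line factors Dppa3 and Ctcfl had 0 counts in the gene tables. In the alignment-free tables Dppa3 was at 0 and 0.22 TPM and Ctcfl at 0.33 and 0.72 TPM. Of 11 tested, 0 passed 1.5-fold between the libraries, against 14.3% of all genes, with Zfp57 nearest to it at 0.54. With so few genes, nothing about the list is read from this count. The hexamer TGCCGC, the core of the site that ZFP57 binds when methylated, was looked for on both strands of 43 upstream windows of 250 bases of 28 imprinted genes. It was in 9 of them (20.9%), in 8 genes (Zdbf2, Mcts2, Calcr, Mest, Copg2, Nap1l5, Zim1, Plagl1), against 8.68% of all windows. Both Mest windows that hold it overlap. The imprinted windows held a median of 13 CG dinucleotides against 6, and the hexamer itself contains CG. Windows of Impact, Cdkn1c, Peg10, Sgce, Kcnk9, Peg13, H19 and Trappc9 were not used here.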

How the data were processed

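Expected counts and TPM per gene and per transcript were taken from 2 libraries of 1 group. Per the text deposited with each library, values refer to mm10 and GENCODE M21; the gene tables and one transcript table came from a transcriptome alignment, and the other, here called alignment-free, from the read file with an index. Names and versions of the tools, and the strand setting, were not given in the sources used here. The deposited expected counts are raw estimates, with reads of more than 1 matching gene divided among them. The deposited TPM values include short structural RNAs, which held 45.8% and 45.7% of TPM, short-RNA entries and spike-ins. Placement of CAST/EiJ reads on mm10 was not analysed here.

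Alignment-free values were summed to genes. For the library ratio, counts of genes alone (32357983 and 24798683) were rounded, genes with a mean of 10 counts were kept, and log2 CPM with a prior count of 2 and TMM scaling was taken with edgeR 4.0.16 (R 4.3.3); DESeq2 1.42.0 size factors were an alternative. The step was tested on simulated data. With 1 group no test was made. Intervals and floors cover counting error only, since the tables give no molecular identifiers. Promoter windows are RefSeq's, build GRCm38.p6.

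All 36 genes are named, with the 3 highest and some of the lowest of 2 further lists, hosts and source genes, and transcripts with 5% of their gene. The genes, lists, thresholds and tests were chosen with earlier results of these data known.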

Additional observations from a re-analysis of the deposited data

How the results depend on the processing

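No paired analysis was possible because the labels give 1 group. The count of 31 genes at 1 TPM stayed between 26 (5 TPM) and 34 (0.1 TPM). The median level was 25.4 TPM in the alignment-free tables, 31.5 TPM after rescaling without short structural RNAs, 17.9 TPM over genes at 1 TPM, and 15.9 TPM with either library left out. The 3 genes past 1.5-fold became 5 with spike-in scaling, 5 without a count filter and 0 at 2-fold. They became 4 of 29 when the required mean was 100 counts, where 471 of 12570 genes passed. The median log2 ratio became 0.15 with spike-in scaling and -0.057 in alignment-free counts. The 27 genes apart between kinds of table became 8 at 2 times and 1 after rescaling. Leading shares moved for Gnas to 46.3% (alignment-free) and 55.8% (protein-coding transcripts only), and for Inpp5f to 11.4% (alignment-free). The median nested-to-host ratio ranged from 1.53 to 1.71 with a library left out, and the ratio of Nap1l5 to Herc3 turned to 0.778 in the alignment-free tables. The causes were not tested. Igf2 and Kcnq1ot1 stayed past 1.5-fold under the 7 alternatives tried for scaling, filter, prior count and kind of table, with Igf2 nearest to it at -0.59 with spike-in scaling. Zim1 fell to 0.50 in alignment-free counts, and Zdbf2 passed 1.5-fold with spike-in scaling (0.74) and with genes of 100 counts or more (0.60). For the 4 genes under 10 counts on average no library difference was detectable at this depth.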

Other observations

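A further list of 29 genes, neighbours of imprinted loci or genes imprinted in some tissue, was read in the same tables. Of them, 13 were at 1 TPM in both libraries. The highest were Cd81 (157 TPM), a tetraspanin gene at the edge of the Kcnq1ot1 domain, Herc3 (137 TPM), the host of Nap1l5, and Rasgrf1 (126 TPM), a neuronal exchange factor for Ras that is paternally expressed in brain. The lowest were Ins2, with 0 counts in both libraries, and Zim3, with 1 count in replicate 1 and 0 in replicate 2. Of the 21 with a mean of 10 counts or more, 1 differed by over 1.5-fold between the libraries, against 14.3% of all genes. That gene was Slc22a2, a transporter gene next to Igf2r, chosen after its value was seen. It was lower in replicate 2 by 1.34 on the log2 scale (0.71 and 0.25 TPM). The difference rests on 32.84 and 9 expected counts, fractional in replicate 1, so the assignment of its reads is uncertain.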
